A study of Mus musculus with 6 samples.

Results

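The NEDD4 family of ubiquitin ligases and their NDFIP adaptors was measured as transcripts in 6 mouse liver samples taken 24 h after a 300 mg/kg dose of APAP. APAP is acetaminophen, which injures hepatocytes at overdose. The 9 genes were chosen by name, 7 ligases (Nedd4, Nedd4l, Itch, Wwp1, Wwp2, Smurf1 and Smurf2) and 2 adaptors (Ndfip1 and Ndfip2), out of 28476 genes in the deposited table. All 9 were found, 1 row each, and all 9 passed the filter on low values. The 3 HepKO samples carry the genotype label Nedd4 HepKO and the 3 Flox samples the label Flox; both are C57BL/6, and the mice were fasted and then injected intraperitoneally with acetaminophen. The promoter that drives Cre in HepKO mice, the deleted exons, the sex and age of the animals and whether Flox mice carry Cre are not given in the sources used here. According to its title, the study asks how NEDD4-1, the product of Nedd4, bears on acetaminophen injury and on the mitochondrial channel VDAC1. No liver without the drug was analysed here, so each difference is between treated genotypes.

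NEDD4-type ligases are HECT enzymes: ubiquitin is passed from an E2 conjugating enzyme to a cysteine of the ligase and then to the substrate. A C2 domain binds membranes, and WW domains bind proline-tyrosine (PY) motifs in substrates and adaptors. NDFIP1 and NDFIP2 are membrane proteins of the Golgi and endosomes whose PY motifs recruit these ligases to targets that lack such a motif. The ligases are known for removing channels, growth factor receptors and signalling proteins from cells, and NEDD4 itself for acting on the insulin and IGF1 receptor pathway.

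The values are FPKM, fragment counts divided by transcript length and library size, as the authors computed them. Being scaled to length, they allow levels of different genes to be set side by side. Differences were tested with limma on log2(FPKM + 1) across the 12712 genes that averaged 0.5 FPKM or more, and "rose" or "fell" is used for a Benjamini-Hochberg adjusted p below 0.05. Of all genes tested, 20.3% passed, 9.33% higher and 11.0% lower in HepKO livers. In numbers, 1186 were higher and 1397 lower, a split that became 1505 higher and 1032 lower after median-ratio rescaling. The total of 2583 was 1616 without HepKO replicate 1, 1281 without HepKO replicate 2, 1331 without Flox replicate 2 and 1483 without Flox replicate 3. Nothing in the labels ties a library to a single mouse, so each HepKO or Flox liver named here stands for 1 library, and the p-values reflect variation among the libraries, which may be technical. Each library summed to between 456176 and 496303 FPKM, and its depth is unknown. Mitochondrial transcripts took 24.6% of the sum in HepKO replicate 1, above the 16.7% to 18.3% of the other libraries. Albumin (Alb) had 25223 to 29075 FPKM in HepKO livers and 22230 to 28279 FPKM in Flox livers, in keeping with the liver label.

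Nedd4 lies on chromosome 9, 72662346 to 72749852 on the plus strand of GRCm38. RefSeq (GRCm38.p6) gives it start sites 30.967 kb apart, and the gene-level FPKM does not separate transcripts by start. The windows from 250 bases before to 50 after each of these starts are shown for the targeted gene. Capitals mark 2 motifs searched on both strands, GGGCGG, the GC box bound by SP1, and TGANTCA, the AP-1 site bound by FOS and JUN proteins; none of the marked matches overlap.
Nedd4 first start, chr9:72662081-72662380, plus strand: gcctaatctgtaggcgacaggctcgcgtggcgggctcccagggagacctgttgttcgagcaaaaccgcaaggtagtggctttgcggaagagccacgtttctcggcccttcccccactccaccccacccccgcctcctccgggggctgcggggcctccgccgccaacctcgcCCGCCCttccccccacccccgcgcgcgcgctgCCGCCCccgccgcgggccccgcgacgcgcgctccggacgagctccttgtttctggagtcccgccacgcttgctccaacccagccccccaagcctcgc
Nedd4 second start, chr9:72693048-72693347, plus strand: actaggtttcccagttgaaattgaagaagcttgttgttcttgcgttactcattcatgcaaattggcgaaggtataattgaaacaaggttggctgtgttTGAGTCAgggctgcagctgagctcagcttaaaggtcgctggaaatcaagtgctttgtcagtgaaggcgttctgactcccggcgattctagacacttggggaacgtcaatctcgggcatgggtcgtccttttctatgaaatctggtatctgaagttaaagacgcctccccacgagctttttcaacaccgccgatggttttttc
The first window holds 35 CG dinucleotides and 2 GGGCGG matches. The second holds 13 CG dinucleotides, no GGGCGG match and 1 TGANTCA match. Of 32851 such windows in the genome, 35.7% hold GGGCGG and 7.81% hold TGANTCA. In GENCODE M21, 1 of 10 annotated Nedd4 transcripts starts within 100 bases of the first site and 0 of 10 within 100 bases of the second. Promoter windows were matched for 5 of the 9 genes.

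Nedd4, the targeted gene (ENSMUSG00000032216), had 0.618, 0.666 and 0.565 FPKM in the HepKO livers, against 2.18, 2.59 and 2.23 FPKM in the Flox livers. Every HepKO liver was below every Flox liver, and the residual level was 26.5% of the Flox mean. This is a gene-level value and the deleted exons are not given, so whether the residual transcripts are intact was not tested. On the log2 scale Nedd4 fell by 1.04 (SE 0.10, limma adjusted p = 0.0015), and it fell in every setting tried. The added 1 FPKM weighs on so low a gene: with 0.1 in its place the log2 fold change was -1.76. The exact two-sided permutation test gave p = 0.10, the smallest that 3 against 3 libraries allow. In bulk tissue, fewer cells of a type and less RNA per cell cannot be told apart.

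Nedd4 neighbours on chromosome 9, named after their values were seen, gave no call. The 2 nearest tested genes at lower coordinates were Rfx7, a transcription factor gene 39.4 kb away, and Zfp280d, a zinc finger gene 299 kb away. Rfx7 had a mean of 0.720 FPKM in HepKO livers and 0.662 FPKM in Flox livers (limma adjusted p = 0.76), and Zfp280d had 0.680 and 0.544 FPKM (adjusted p = 0.43). At higher coordinates, Ccpg1, 236 kb away, had 1.246, 0.837 and 0.795 FPKM in HepKO livers, against 1.310, 1.346 and 1.253 FPKM in Flox livers. Every HepKO liver was thus lower for Ccpg1, by a narrow margin in replicate 1, and the difference did not pass (limma adjusted p = 0.20). Ccpg1os averaged 1.24 FPKM in HepKO livers and 1.57 FPKM in Flox livers (adjusted p = 0.43).

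**Figure D1:**
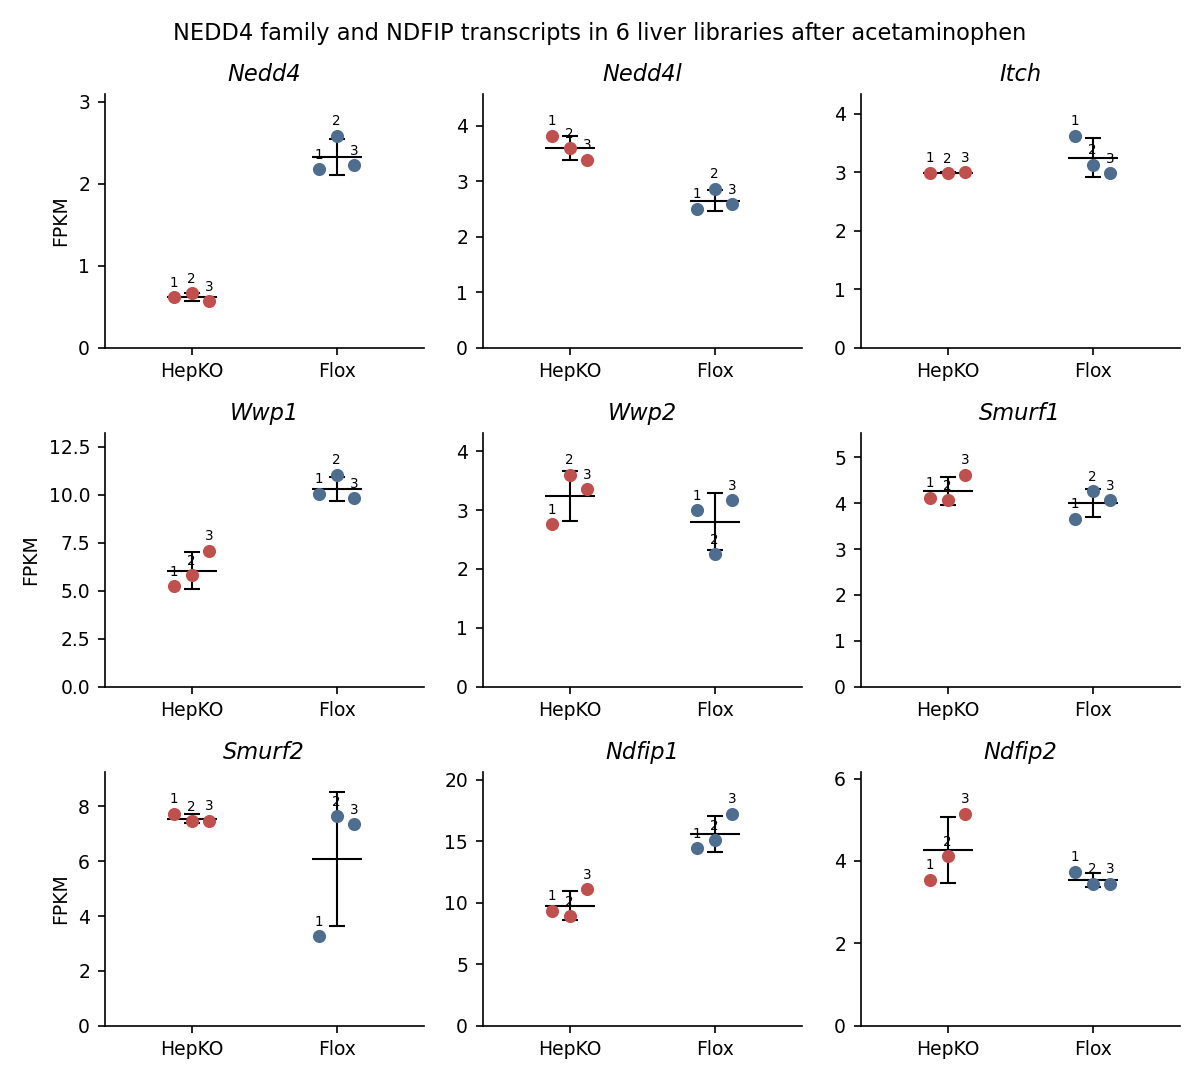
FPKM of the 7 ligases and 2 adaptors in each liver, with HepKO at left and Flox at right of each panel; points are libraries marked with their replicate number, the bar is the mean and the whisker the SD (n = 3). Nedd4, Wwp1 and Ndfip1 are lower in every HepKO liver, and Flox replicate 1 stands alone at 3.27 FPKM in the Smurf2 panel.

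Of the 9 genes, 3 fell (Nedd4, Wwp1 and Ndfip1), 0 rose and 6 did not pass. Without the targeted gene that is 2 of 8, both lower, beside 20.3% of all genes tested in either direction and 11.0% lower. Whether a count from so few genes differs from these shares was not tested. The HepKO and Flox values did not overlap for 4 of 9 genes, those 3 lower and Nedd4l higher, beside 42.4% of all genes tested (25.2% lower and 17.2% higher). The median log2 fold change of the 9 was 0.08, against -0.06 over all genes tested.

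Nedd4l (ENSMUSG00000024589, chromosome 18, 64887705 to 65215069, plus strand) encodes NEDD4-2, the closest paralog, which is known for removing the epithelial sodium channel from the cell surface. It had 3.81, 3.59 and 3.39 FPKM in the HepKO livers, against 2.50, 2.86 and 2.59 FPKM in the Flox livers. Every HepKO liver was above every Flox liver, yet the log2 difference of 0.33 (SE 0.10, 95% interval 0.10 to 0.57) narrowly missed the threshold (limma adjusted p = 0.054). It passed after median-ratio rescaling (adjusted p = 0.038) and with array weights (adjusted p = 0.032), and in the authors' deposited table its q-value is 0.0447. The adjusted p lay between 0.069 and 0.14 when any 1 library was left out.

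The ratio of Nedd4 to Nedd4l was 0.162, 0.185 and 0.167 in the HepKO livers, against 0.871, 0.904 and 0.861 in the Flox livers. The paralogs were thus near parity in Flox livers and far apart in HepKO livers. The difference of the log2 ratio of FPKM + 1 was -1.37 (exact two-sided permutation p = 0.10, and 0.11 adjusted over 11 ratios; the design cannot go lower than the first). With 0.1 added it was -2.19.

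Itch (chromosome 2, 155133509 to 155226853, plus strand) encodes a ligase that limits T cell activation and acts on JUN proteins and c-FLIP. It had 2.99, 2.99 and 3.00 FPKM in the HepKO livers, against 3.62, 3.13 and 2.98 FPKM in the Flox livers. The HepKO livers differed among themselves by an SD of only 0.0077 FPKM, and the groups overlapped. The log2 fold change was -0.08 (95% interval -0.32 to 0.15, limma adjusted p = 0.59).

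Wwp1 (ENSMUSG00000041058, chromosome 4, 19608303 to 19708993, minus strand), a ligase known for acting on KLF5, ERBB4 and LATS1, fell. It had 5.23, 5.81 and 7.10 FPKM in the HepKO livers, against 10.1, 11.0 and 9.82 FPKM in the Flox livers. The HepKO livers lay between 5.23 and 7.10 FPKM with no overlap, and their mean was 58.6% of the Flox mean. The log2 fold change was -0.69 (SE 0.13, 95% interval -0.99 to -0.39, limma adjusted p = 0.012). The call was lost without HepKO replicate 2 (adjusted p = 0.052) or Flox replicate 2 (adjusted p = 0.051), at log2 fold changes of -0.67 and -0.64.

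Wwp2 (chromosome 8, 107436365 to 107558595, plus strand), a ligase of the same subgroup as Wwp1, had 2.76, 3.60 and 3.36 FPKM in the HepKO livers, against 3.00, 2.25 and 3.17 FPKM in the Flox livers. The groups overlapped, and the log2 fold change was 0.16 (95% interval -0.17 to 0.49, limma adjusted p = 0.45). A pseudogene on the opposite strand, Rps26-ps1, lies within Wwp2 and averaged 10.2 FPKM; it shares 0 exon bases with Wwp2. Every other measured gene that overlaps a member averaged at most 0.085 FPKM. The ratio of Wwp1 to Wwp2 was 1.89, 1.62 and 2.11 in HepKO livers, against 3.36, 4.92 and 3.10 in Flox livers. As a log2 ratio of FPKM + 1 it was lower by 0.85 in HepKO livers, a difference of -0.85 (exact two-sided permutation p = 0.10, adjusted 0.11).

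Smurf1 and Smurf2 encode ligases that act on SMAD proteins, the TGF-beta receptor and RHOA. Smurf1 (chromosome 5, 144876495 to 144965847, minus strand) had 4.12, 4.06 and 4.62 FPKM in the HepKO livers, against 3.66, 4.25 and 4.07 FPKM in the Flox livers. The groups overlapped (log2 fold change 0.08, 95% interval -0.17 to 0.32, limma adjusted p = 0.63). Smurf2 (chromosome 11, 106820066 to 106920715, minus strand) had 7.73, 7.46 and 7.47 FPKM in the HepKO livers, against 3.27, 7.65 and 7.35 FPKM in the Flox livers.

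In Smurf2, 5 of the 6 livers lay between 7.35 and 7.73 FPKM, and Flox replicate 1 alone was low, at 0.446 of the lowest of the others. The log2 fold change was 0.34 (95% interval -0.30 to 0.98, limma adjusted p = 0.41) with all libraries and 0.01 without Flox replicate 1 (adjusted p = 0.96), so that 1 library sets the value. Of all genes tested, 1.31% were below 0.5 of the lowest other library in Flox replicate 1, against 0.653% to 1.67% in the other libraries. Smurf2 was the single member of the family and of the related lists with that pattern.

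Ndfip1 (ENSMUSG00000024425, chromosome 18, 38410396 to 38465303, plus strand), the more abundant adaptor, fell. It is known for activating ITCH and NEDD4-type ligases and for limiting iron uptake through the transporter DMT1. It had 9.34, 8.89 and 11.1 FPKM in the HepKO livers, against 14.4, 15.1 and 17.2 FPKM in the Flox livers. The highest HepKO liver was below the lowest Flox liver, and the HepKO mean was 62.7% of the Flox mean. The log2 fold change was -0.62 (SE 0.12, 95% interval -0.91 to -0.33, limma adjusted p = 0.016). The call was lost without HepKO replicate 2 (adjusted p = 0.063), Flox replicate 2 (adjusted p = 0.051) or Flox replicate 3 (adjusted p = 0.055).

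Ndfip2 (chromosome 14, 105258573 to 105309298, plus strand), the second adaptor, had 3.55, 4.12 and 5.14 FPKM in the HepKO livers, against 3.74, 3.45 and 3.45 FPKM in the Flox livers. The groups overlapped, with the spread mainly among HepKO livers (log2 fold change 0.20, 95% interval -0.11 to 0.52, limma adjusted p = 0.32). Ndfip1 exceeded Ndfip2 2.63-fold, 2.16-fold and 2.15-fold in the HepKO livers, against 3.85-fold, 4.37-fold and 5.00-fold in the Flox livers. The groups did not overlap in this ratio (difference of log2 ratios of FPKM + 1 -0.83, exact two-sided permutation p = 0.10, adjusted 0.11).

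**Figure D2:**
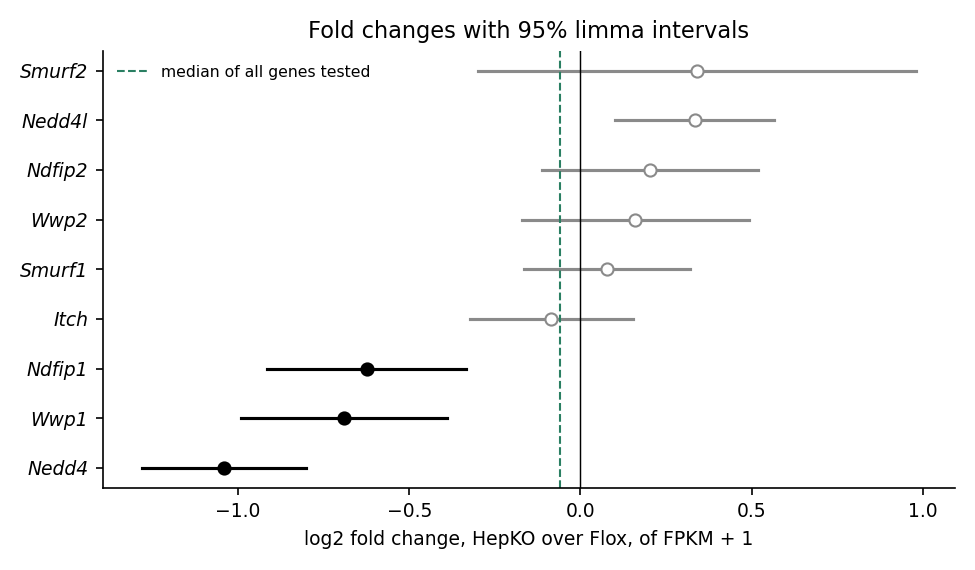
Log2 fold change of FPKM + 1, HepKO over Flox, for each of the 9 genes with its 95% limma interval; filled points passed at an adjusted p below 0.05 and the dashed line is the median of all genes tested, -0.06. Nedd4, Wwp1 and Ndfip1 lie at -1.04, -0.69 and -0.62, and Nedd4l at 0.33 did not pass.

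In HepKO livers the order of mean levels was Ndfip1 at 9.77 FPKM, Smurf2 at 7.55, Wwp1 at 6.05, Ndfip2 and Smurf1 at 4.27 each, Nedd4l at 3.60, Wwp2 at 3.24, Itch at 2.99 and Nedd4 at 0.616. The ranges of Ndfip2 and Smurf1, of Nedd4l and Wwp2, and of Wwp2 and Itch overlapped, and the other neighbours were apart. In Flox livers the order was Ndfip1 at 15.6 FPKM, Wwp1 at 10.3, Smurf2 at 6.09, Smurf1 at 3.99, Ndfip2 at 3.55, Itch at 3.24, Wwp2 at 2.80, Nedd4l at 2.65 and Nedd4 at 2.33. There Ndfip1 and Wwp1 stood apart from the gene below them, and each of the other neighbours overlapped, Smurf2 and Smurf1 only through the 3.27 FPKM of Smurf2 in Flox replicate 1. Nedd4 was thus the least abundant of the 9 in mean level in both groups.

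The 7 ligases summed to 27.3, 28.2 and 29.5 FPKM in the HepKO livers, against 28.3, 33.8 and 32.2 FPKM in the Flox livers. The means of 28.3 ± 1.13 FPKM in HepKO and 31.4 ± 2.82 FPKM in Flox livers (SD, n = 3 each) overlapped in range (exact two-sided permutation p = 0.20). Without Nedd4 the sums averaged 27.7 ± 1.16 FPKM in HepKO livers and 29.1 ± 2.64 FPKM in Flox livers (exact two-sided permutation p = 0.50), and the direction turned after median-ratio rescaling. In both sums Flox replicate 1, in which Smurf2 was low, was the only Flox library not above every HepKO liver. It had 28.3 FPKM with Nedd4 and 26.1 FPKM without. Leaving that library out gave differences, HepKO less Flox, of -4.67 FPKM with Nedd4 and -2.88 FPKM without. The 2 adaptors summed to 12.9, 13.0 and 16.2 FPKM in the HepKO livers, against 18.2, 18.5 and 20.7 FPKM in the Flox livers, without overlap (exact two-sided permutation p = 0.10).

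Within the ligase sum, Nedd4 made up 2.27%, 2.37% and 1.92% in the HepKO livers, against 7.70%, 7.66% and 6.91% in the Flox livers. Wwp1 made up 21.3% on average in HepKO livers and 32.9% in Flox livers, where it was the largest part. Smurf2 was the largest part in HepKO livers, with 26.7% on average against 19.0% in Flox livers, a Flox mean that includes the 11.6% of replicate 1. Nedd4l had 12.7% and Smurf1 15.1% in HepKO livers, against 8.44% for Nedd4l and 12.7% for Smurf1 in Flox livers. Shares add up to a whole, so a lower share of 1 ligase raises the others.

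**Figure D3:**
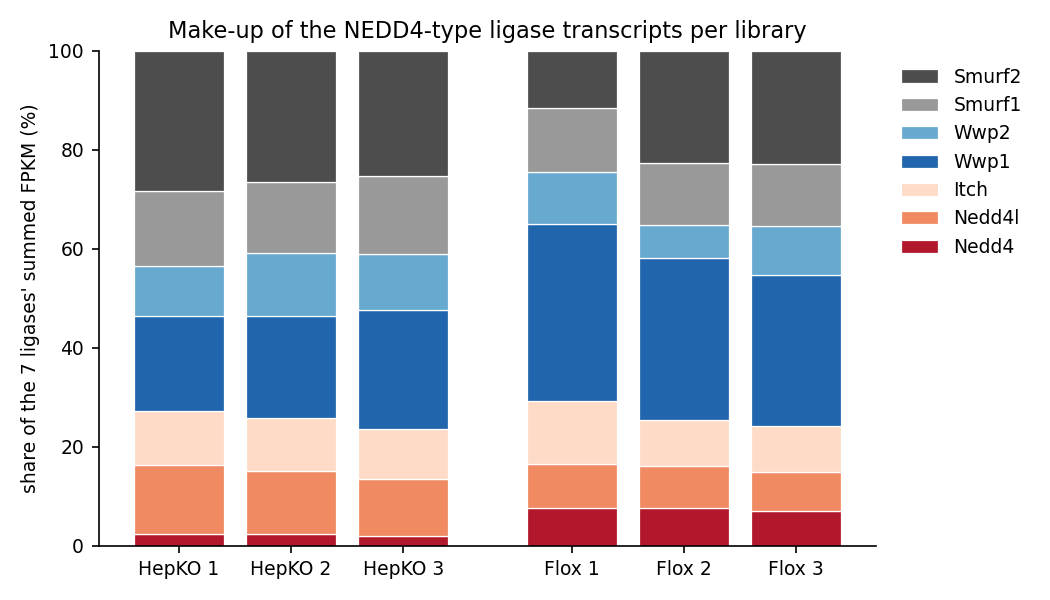
Share of each ligase in the summed FPKM of the 7 ligases, in percent, 1 stacked bar per liver with HepKO at left and Flox at right. Nedd4 and Wwp1 take smaller shares in HepKO livers, 2.18% and 21.3% on average against 7.42% and 32.9% in Flox livers.

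Each other member was also set against Nedd4 as a log2 ratio of FPKM + 1 in the same liver. All 8 such ratios were higher in HepKO livers with no overlap between groups, Nedd4l included, and each exact two-sided permutation test gave p = 0.10 (adjusted 0.11 over 11 ratios). Nedd4, the targeted gene, is the reference in each, so a difference is the member's own log2 fold change less the -1.04 of Nedd4. Any member that fell less than Nedd4 gives a higher ratio, so the shared direction is no separate result. The difference was smallest for the genes that also fell, 0.35 for Wwp1 and 0.42 for Ndfip1, and between 0.96 for Itch and 1.38 for Smurf2 for the other 5 not paired with Nedd4l above. The Wwp1 difference was 0.22 without HepKO replicate 3, and the Smurf2 difference was 1.08 without Flox replicate 1. With 0.1 in place of 1 FPKM added, the differences were 0.99 for Wwp1, 1.09 for Ndfip1 and 1.65 to 2.16 for the other 5.

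Genes that work with the family were read from lists of other HECT ligases, E2 enzymes, PY-motif adaptors and known substrates. Among 18 other HECT ligases, 15 were tested, 2 fell, 0 rose and 13 did not pass, beside 11.0% of all genes tested that fell. Huwe1, a large ligase known for acting on MCL1 and p53, fell to 7.30 ± 0.72 FPKM in HepKO livers, against 10.4 ± 1.00 FPKM in Flox livers (SD, n = 3 each; log2 fold change -0.46, limma adjusted p = 0.036). Hectd3 fell to 6.67 ± 0.56 FPKM in HepKO livers, against 8.98 ± 0.47 FPKM in Flox livers (log2 fold change -0.38, limma adjusted p = 0.041). The Hectd3 call was lost when any 1 library was left out (adjusted p 0.061 to 0.13), and that of Huwe1 without any library but HepKO replicate 3 (0.062 to 0.12). Both calls were also lost after median-ratio rescaling (adjusted p 0.055 for Huwe1 and 0.10 for Hectd3). The list's median log2 fold change was -0.25, and 13 of its 15 tested genes were below 0, as were 56.6% of all genes tested. The related ligases Hecw1 and Hecw2 did not reach the filter, and Hecw2, the more abundant, had 0.272, 0.256 and 0.175 FPKM in HepKO livers, against 0.193, 0.254 and 0.278 FPKM in Flox livers.

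None of the 6 E2 enzymes passed (limma, smallest adjusted p = 0.054, for Ube2e1). The most abundant, Ube2d3, which charges many HECT ligases with ubiquitin, averaged 10.9 FPKM in HepKO livers and 11.1 FPKM in Flox livers (adjusted p = 0.91). Of 16 PY-motif adaptors and recruiters, 15 were tested, 1 rose, 1 fell and 13 did not pass. Beside both lists, 20.3% of all genes tested passed, 9.33% higher and 11.0% lower. Laptm5, a lysosomal membrane protein gene of blood cells, rose to 6.16, 6.43 and 4.99 FPKM in HepKO livers, against 2.87, 2.21 and 3.38 FPKM in Flox livers (log2 fold change 0.85, adjusted p = 0.011). Laptm4a, its widely expressed relative, fell to 71.5, 71.6 and 76.7 FPKM in HepKO livers, against 101, 97.8 and 100.2 FPKM in Flox livers (log2 fold change -0.44, adjusted p = 0.017, lost without HepKO replicate 2, Flox replicate 2 or Flox replicate 3 at adjusted p 0.074, 0.059 and 0.065). Neutrophil markers moved with Laptm5: all 7 tested of 8 rose, and their summed level was 132 to 158 FPKM in HepKO livers and 10.5 to 20.2 FPKM in Flox livers. The part of these cells in the Laptm5 difference was not tested.

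Of 29 substrates and regulators, 26 were tested, 7 rose, 2 fell and 17 did not pass, with a median log2 fold change of 0.24. Of all genes tested, 9.33% rose and 11.0% fell, with a median of -0.06. The list was chosen with earlier results of these data known, so setting it beside these shares is no test. Jun, a target of ITCH, had 244, 218 and 369 FPKM in HepKO livers, against 40.3, 32.3 and 26.2 FPKM in Flox livers, and rose (limma adjusted p = 0.00096). Junb, another ITCH target, had 207, 203 and 174 FPKM in HepKO livers, against 28.5, 32.7 and 32.6 FPKM in Flox livers, and rose (adjusted p = 0.00026). The groups did not overlap for either of these AP-1 genes, which had the largest rises on the list on the log2(FPKM + 1) scale. As a ratio of mean FPKM, Cxcr4 differed more, 12.7-fold against 8.42-fold for Jun and 6.22-fold for Junb.

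Irs2, the insulin receptor substrate that NEDD4 binds, rose to 5.15 FPKM in HepKO livers, against 1.23 FPKM in Flox livers (limma adjusted p = 0.0035). Cxcr4, a chemokine receptor degraded through ITCH, averaged 3.79 FPKM in HepKO livers and 0.299 FPKM in Flox livers (adjusted p = 0.016, lost without HepKO replicate 1, HepKO replicate 2 or Flox replicate 2 at 0.051, 0.057 and 0.059). Gja1, the connexin 43 gene, averaged 1.91 FPKM in HepKO livers and 0.441 FPKM in Flox livers (adjusted p = 0.017, lost without the same libraries at 0.057, 0.052 and 0.061). Cxcr4 is expressed by leukocytes, and the neutrophil sums above moved the same way; their part was not tested.

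Among the falls, Kdr, the VEGF receptor of endothelial cells, averaged 0.805 FPKM in HepKO livers and 2.29 FPKM in Flox livers (limma adjusted p = 0.0033). Endothelial markers were mixed: of 8 with Kdr, 4 rose, Kdr fell and 3 did not pass, beside 9.33% of all genes tested that rose and 11.0% that fell. Clec4g and Oit3, named after their values were seen, were lower in every HepKO library without passing (log2 fold changes -0.55 and -0.58, adjusted p = 0.058 and 0.059). The sum of the 8 was 40.4 to 55.9 FPKM in HepKO livers and 32.7 to 37.4 FPKM in Flox livers. Scnn1a, the sodium channel subunit regulated by NEDD4-2, averaged 1.38 FPKM in HepKO livers and 2.18 FPKM in Flox livers (adjusted p = 0.047, 0.078 after median-ratio rescaling, and 0.069 to 0.14 when any 1 library was left out). Vdac1, the channel of the series title, averaged 53.6 FPKM in HepKO livers and 59.95 FPKM in Flox livers and did not pass (adjusted p = 0.36). The ligases act on proteins, so transcript levels of Vdac1 and the other substrates do not measure that action.

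**Figure D4:**
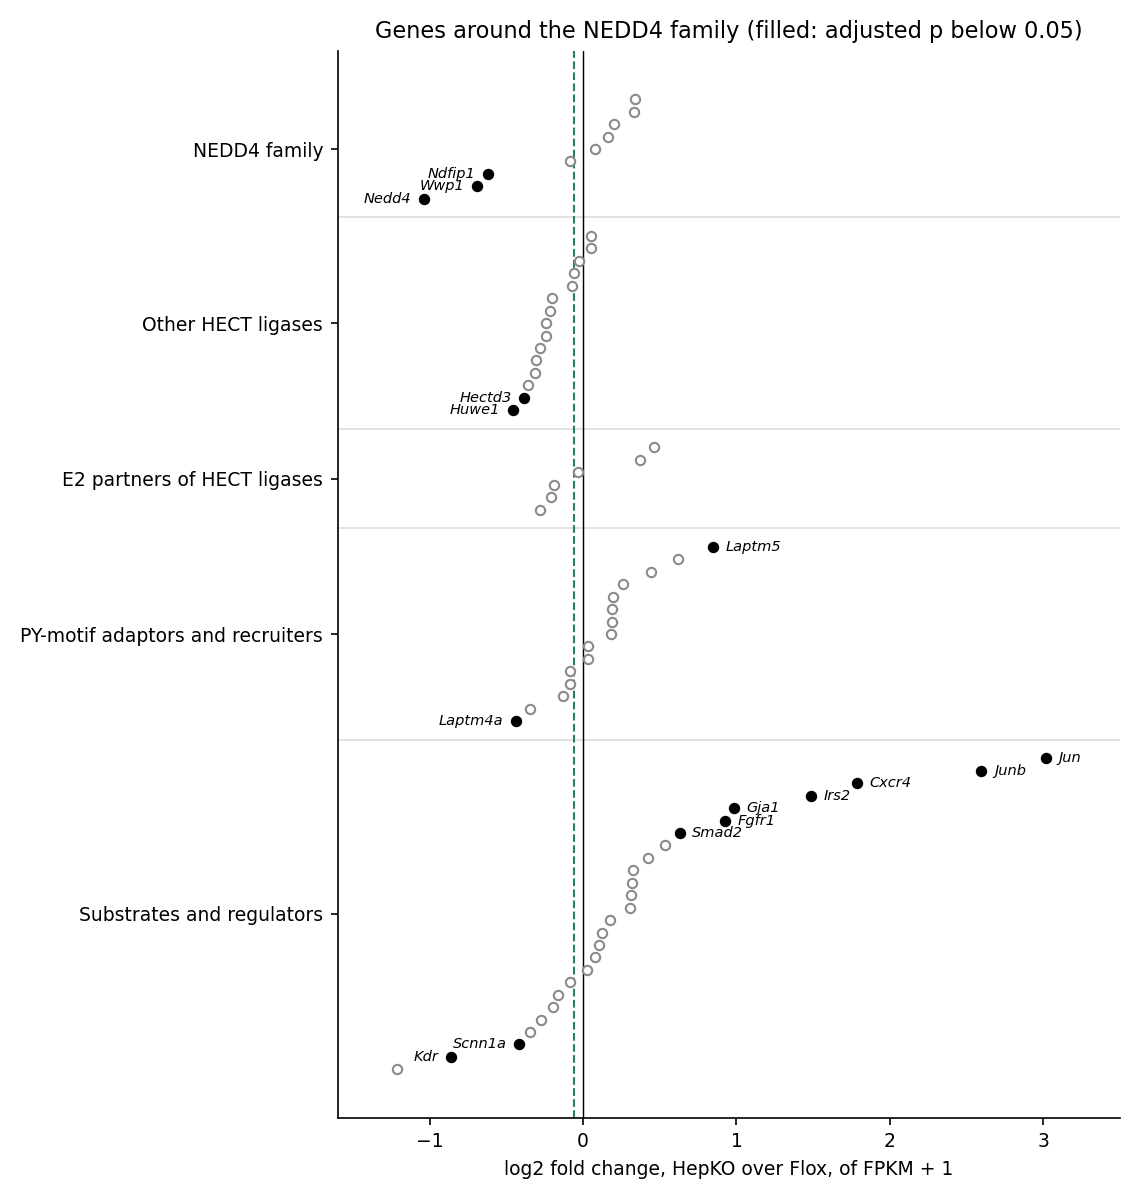
Log2 fold change of FPKM + 1, HepKO over Flox, of every tested gene of the NEDD4 family and 4 related lists, 1 point per gene sorted within its list; filled and named points passed at an adjusted p below 0.05, and the dashed line is the median of all genes tested. Jun and Junb stand at 3.02 and 2.60, and 13 of the 15 other HECT ligases lie below 0.

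The genes with profiles closest to each member that fell were found by the root mean square difference over the 6 libraries of log2(FPKM + 1), with each gene's own mean taken off. For Nedd4 they were Hc, the complement C5 gene (difference 0.043), Ndrg2 (0.050) and Deptor, an inhibitor of mTOR (0.056). Hc had 41.9, 42.9 and 41.7 FPKM in the HepKO livers, against 81.3, 97.1 and 90.5 FPKM in the Flox livers. For Wwp1 they were Tmprss6, the hepatocyte protease that restrains hepcidin (0.037), Pcca, a mitochondrial carboxylase subunit (0.039), and Pafah2 (0.041). For Ndfip1 they were Dnlz, Dtx3l, a ubiquitin ligase gene, and Zfp189 (0.039, 0.042 and 0.051). The likeness rests on 6 libraries that fall into 2 groups, and it holds on the scale of FPKM + 1. As a share of the Flox mean, Hc was at 47.0% and Ndrg2 at 50.8% in HepKO livers, against 26.5% for Nedd4.

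Markers of cells other than hepatocytes were present in every library. Beside the counts given here, 9.33% of all genes tested rose and 11.0% fell. Kupffer cell and macrophage markers summed to 113 to 134 FPKM in HepKO livers and 76.9 to 120.3 FPKM in Flox livers. Of 9 tested, 2 rose and 7 did not pass, and 5 had log2 fold changes above 0 against 4 below. Marco alone averaged 39.8 FPKM in HepKO livers and 13.0 FPKM in Flox livers. Stellate cell markers summed to 47.4 to 63.2 FPKM in HepKO livers and 34.1 to 52.7 FPKM in Flox livers. Of the 8, 2 rose and 6 did not pass, and 5 had log2 fold changes below 0 against 3 above. Dcn alone averaged 33.4 FPKM in HepKO livers and 18.6 FPKM in Flox livers. Cholangiocyte markers summed to 50.8 to 66.2 FPKM in HepKO livers and 25.4 to 35.1 FPKM in Flox livers. All 4 tested had log2 fold changes above 0, 2 rose and 2 did not pass. Spp1 alone averaged 44.9 FPKM in HepKO livers and 26.9 FPKM in Flox livers. Of 8 T, NK and B cell markers 1 was tested, Ms4a1 was at 0 in every library, and the sum was 2.77 to 3.45 FPKM in HepKO livers and 0.974 to 3.01 FPKM in Flox livers. Of 10 hepatocyte markers, 2 fell, 1 rose and 7 did not pass, with log2 fold changes below 0 for 4 and above 0 for 6. Their sum was 43062 to 47733 FPKM in HepKO livers and 39006 to 44862 FPKM in Flox livers. Most of it was Alb, which averaged 26922 FPKM in HepKO livers and 25956 FPKM in Flox livers. The part of these cells in the residual Nedd4 level was not tested.

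**Figure D5:**
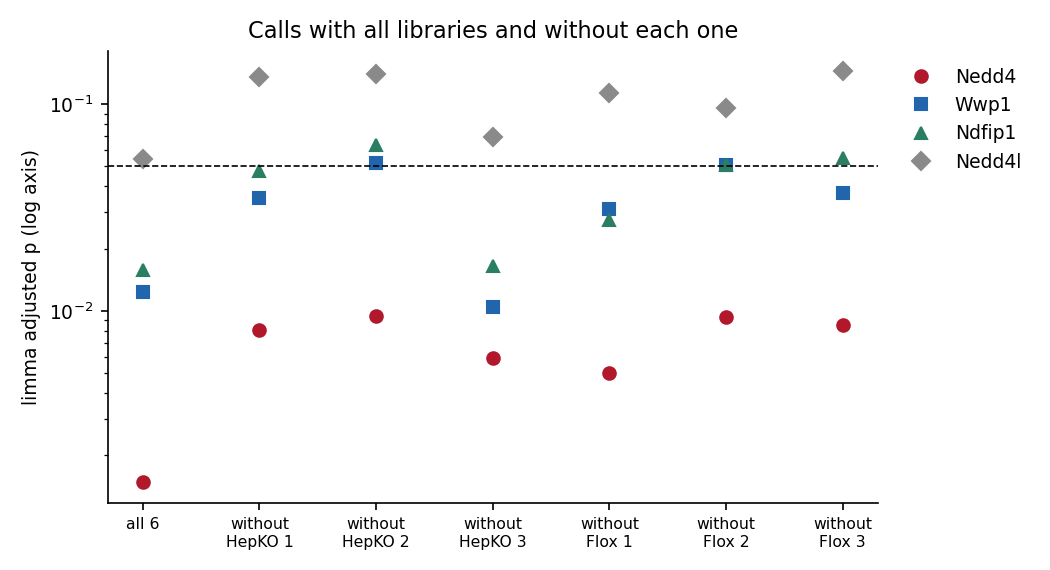
Limma adjusted p (log axis) of Nedd4, Wwp1, Ndfip1 and Nedd4l with all 6 libraries and without each one; the dashed line is the threshold of 0.05. Nedd4 stays between 0.0050 and 0.0094 without any 1 library, Wwp1 and Ndfip1 cross the line without HepKO replicate 2 or Flox replicate 2, Ndfip1 also without Flox replicate 3, and Nedd4l stays above it.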

How the data were processed

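Poly(A) RNA of 3 HepKO and 3 Flox liver samples was read by paired-end sequencing from strand-marked libraries, according to the labels' protocols. The deposited table gives FPKM per library, computed by the authors, per the file headers. Tools listed in the submitters' processing notes, with no role stated, are StringTie 1.3.4d, edgeR, HISAT2 2.0.4, DESeq2 and cutadapt 1.9. None of these sources says whether counting used strand. The authors' deposited p-value and q-value columns come from a tool not given in the sources used here, and the genome build is not given there either. Of 28396 gene identifiers shared with GENCODE M21 on GRCm38, 24678 have the same coordinates; for Itch and Nedd4l they differ, and the deposited ones are printed.

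Because FPKM are normalized values, count models were not used. Between library pairs, modal log2 ratios of low genes lay between -0.08 and 0.31 and held at most 9.60% of those genes, so depth stays unknown. No pair of libraries held the same values. The 12712 genes averaging 0.5 FPKM or more entered a limma fit (version 3.58.1, R 4.3.3) of log2(FPKM + 1), genotype as the only term, with the variance trend, two-sided, and checked on simulated data. Ratios and sums were tested with exact permutation tests (scipy 1.17.1). Plots were made with matplotlib 3.10.9.

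The members and lists were chosen with earlier results of these data known, and 1 gene of the substrate list is not reported here. Genes named are the 9 members and up to 5 called genes in each direction per related list (or the most abundant where none passed). The 3 closest profiles of each called member are named too. Nedd4 neighbours, Ube2e1, Alb, Vdac1, Marco, Dcn and Spp1 were named after their values were seen. Tried in turn were a different pseudocount, filter, rescaling or limma setting, blocking on replicate number, and omission of each library.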

Additional observations from a re-analysis of the deposited data

How the results depend on the processing

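Nedd4 fell in all 18 alternatives, with a log2 fold change between -1.76 and -0.98 (limma adjusted p 0.00070 to 0.015). Wwp1 passed in 16 and Ndfip1 in 15 of 18, each lost call coming from leaving out 1 library, and Nedd4l passed in 2 of 18. With 1 library left out, the family members called ranged from 1 to 3, and the genes called across the table from 1281 to 2257. No pairing by replicate number was visible, though so few libraries cannot exclude one. Correlations of deviations were 0.0029, 0.0021 and -0.0255 for same-numbered livers, against -0.046 to 0.050 for other pairs. With a replicate block 1551 genes passed. Under the block Nedd4, Wwp1 and Ndfip1 still passed, while Huwe1, Hectd3, Laptm4a and Scnn1a did not (adjusted p 0.055 to 0.083). The following values changed sign, none of them past a threshold. After median-ratio rescaling, Itch had a log2 fold change of 0.0024, Ube2d3 had 0.069, and the sum of 6 ligases without Nedd4 differed by 0.862 FPKM. Ube2d3 also changed sign after a common sum without abundant genes (0.0196), after quantile normalization (0.037) and with 1 library left out (-0.19 to 0.11). The log2 ratio of Smurf1 to Smurf2 differed by -0.26, and by -0.40 to 0.018 with 1 library left out, the positive value without Flox replicate 1. The cause was not tested. With 3 libraries a group, exact tests cannot pass 0.05, and the depth behind FPKM near 0.6 is unknown.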

Other observations

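Insr, the insulin receptor gene, was low in 1 Flox library, the one in which Smurf2 was low. It had 0.628, 0.710 and 0.709 FPKM in the HepKO livers, against 0.596, 5.31 and 4.93 FPKM in the Flox livers. The groups overlapped because Flox replicate 1 was below all 3 HepKO livers, and the difference did not pass (log2 fold change -1.22, SE 0.51, limma adjusted p = 0.14). Txnip, an arrestin-like gene whose protein is removed by ITCH, had 13.0, 11.5 and 11.7 FPKM in the HepKO livers, against 15.9, 6.40 and 3.88 FPKM in the Flox livers, so that Flox replicate 1 was the highest of the 6 (adjusted p = 0.33). Both genes were chosen after their values were seen.

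Slc11a2, the gene of the iron transporter DMT1 that NDFIP1 helps to remove, had 4.79, 5.26 and 6.57 FPKM in the HepKO livers, against 6.63, 7.02 and 6.91 FPKM in the Flox livers. Every HepKO liver was lower, and the difference did not pass (log2 fold change -0.27, SE 0.12, limma adjusted p = 0.17). Sgk1, the kinase that restrains NEDD4-2, had 6.22, 7.69 and 9.23 FPKM in the HepKO livers, against 4.77, 4.29 and 5.92 FPKM in the Flox livers, without overlap and without a call (log2 fold change 0.53, adjusted p = 0.065). These genes too were chosen after their values were seen.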
